A study of Homo sapiens with 9 samples.

Results

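RNA-seq was used to follow the Wnt pathway in CAL-27 cells, an established tongue squamous carcinoma line of human origin, after knockdown of LEF1 or KDM4A. The genes described are 52 named members of the pathway, chosen by gene name with earlier results of these data known: 11 Wnt ligands, 9 Frizzled receptors, 5 co-receptors and other Wnt receptors, 4 secreted inhibitors, 8 genes of the destruction complex, Dishevelled and beta-catenin, 8 feedback genes, 3 R-spondin receptors, 2 nuclear coactivators and 2 genes of ligand processing and secretion. Of these, 50 had a row among the 33216 genes of the tables, and the levels of FZD10 and WIF1 were not analysed here. Cells were transfected for 48 h with a control, with small interfering RNA against LEF1 (siLEF1) or with small interfering RNA against KDM4A (siKDM4A), with n = 3 in each of the 3 groups. The sources used here state neither what the control was nor which of the designed siRNAs was used, and all 9 libraries come from 1 cell line. Levels are given in FPKM, fragments per kilobase of exon scaled to the reads of the library, so that levels can be set side by side between genes. Bulk RNA cannot tell fewer cells of a type from less RNA per cell.

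Wnt ligands are lipid-modified by PORCN and carried to the cell surface by WLS. At the membrane they bind Frizzled receptors with LRP5 or LRP6, and Dishevelled proteins then restrain the destruction complex of AXIN1, APC, GSK3B and CSNK1A1, which otherwise marks beta-catenin (CTNNB1) for degradation. Stabilised beta-catenin joins TCF/LEF factors such as LEF1 on DNA together with BCL9 and PYGO2, and among the genes then switched on are negative regulators of the pathway itself, for example AXIN2, NKD1, NOTUM, RNF43, ZNRF3 and DKK1. A branch that does not use beta-catenin runs through ligands such as WNT5A and the receptors ROR1, ROR2 and RYK. KDM4A, the other gene targeted, is a histone lysine demethylase.

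The targeted genes were read first. LEF1 was at 1.19, 0.997 and 1.27 FPKM in Control and at 0.271, 0.246 and 0.230 FPKM in siLEF1. Its mean fell by 78.4%, and 21 to 23 reads were left per siLEF1 library. KDM4A was at 16.5, 16.5 and 16.7 FPKM in Control and at 2.78, 2.76 and 2.78 FPKM in siKDM4A, and its mean fell by 83.2%. LEF1 was at 0.898, 0.937 and 0.806 FPKM in siKDM4A, which did not pass the test (log2 fold change -0.35, 95% interval -0.71 to 0.02), and KDM4A fell by 15.1% in siLEF1, under the fold threshold used here. Libraries held 15263188 to 17126664 reads on genes. All 10 squamous epithelial markers had a mean above 1 FPKM over the 9 libraries, although KRT14 and KRT6A averaged 0.758 and 0.654 FPKM in siKDM4A. In contrast, the leukocyte marker PTPRC was at 0 in Control and in siKDM4A. The fibroblast markers DCN and PDGFRA had means of at most 0.0162 FPKM in any group. Other markers of those lists were detected. The leukocyte marker CD14 had means of 3.23, 2.29 and 1.79 FPKM in Control, siLEF1 and siKDM4A. The fibroblast marker COL1A1 had means of 2.39, 2.62 and 2.265 FPKM in the same order. The summed level of the squamous markers was 1562 to 1599 FPKM in Control and 1554 to 1568 FPKM in siLEF1, but 776 to 801 FPKM in siKDM4A, where KRT5, KRT14, KRT6A, KRT17, TP63, DSG3 and SFN fell, EPCAM rose, and CDH1 and LAMB3 passed in neither direction. That shift accompanies every siKDM4A value below and its part in them was not tested. In siLEF1, 2 squamous markers passed both thresholds although the sum stayed close to Control. DSG3 rose from a mean of 6.76 to 11.6 FPKM, and LAMB3 fell from 349 to 212 FPKM. The summed level of 6 fibroblast markers was 3.54 to 4.05 FPKM in Control, 5.30 to 6.29 FPKM in siLEF1 and 3.28 to 3.74 FPKM in siKDM4A, with COL1A2 and PDGFRB past both thresholds in siLEF1. The 5 endothelial markers summed to 0.694 to 1.28 FPKM in Control, 2.02 to 2.42 FPKM in siLEF1 and 2.46 to 2.87 FPKM in siKDM4A, mostly from CDH5. The 7 leukocyte markers summed to 3.26 to 4.57, 2.92 to 3.06 and 1.85 to 2.38 FPKM in the same order, and CD14 and ITGAM fell past both thresholds in siKDM4A. The part of these marker shifts in the results was not tested either.

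LEF1 and the other TCF factors recognise a short DNA motif, so the bases just before the start of the members were searched for it. The letters searched were CTTTGAT and CTTTGAA on both strands, in the 250 bases before the start, for the 36 members matched in the RefSeq promoter table (GRCh38.p14). Of the 46 windows of these members 2 held a match, those of DKK1 and SP5, beside 5.94% of all 35116 windows of this length. Members without an entry, among them AXIN2, DKK3 and WNT7B, were not searched. CTTTGAA alone was in 3.80% of windows and CTTTGAT alone in 2.26%. The shorter core CTTTG, searched in the same windows, was in 11 of the 46, those of 10 members, beside 42.1% of all windows. The windows below are those of DKK1 and SP5, which held CTTTGAT or CTTTGAA, and of ROR1 and WNT5A, which stand for the members that rose in both knockdowns. They were chosen after the values had been seen. All run 5′ to 3′ in the direction of the gene, with matches of CTTTGAT or CTTTGAA on either strand in capitals.
DKK1, chr10:52314031-52314280, + strand: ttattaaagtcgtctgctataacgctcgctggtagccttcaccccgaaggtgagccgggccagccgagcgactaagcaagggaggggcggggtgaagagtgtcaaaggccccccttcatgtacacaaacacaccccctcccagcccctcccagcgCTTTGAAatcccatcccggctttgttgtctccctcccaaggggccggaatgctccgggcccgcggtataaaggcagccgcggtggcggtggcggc
SP5, chr2:170715087-170715336, + strand: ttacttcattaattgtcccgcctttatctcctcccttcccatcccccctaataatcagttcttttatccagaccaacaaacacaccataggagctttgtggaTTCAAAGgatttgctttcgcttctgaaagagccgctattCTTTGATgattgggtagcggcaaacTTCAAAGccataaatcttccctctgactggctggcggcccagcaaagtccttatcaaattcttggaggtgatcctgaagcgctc
ROR1, chr1:63773767-63774016, + strand: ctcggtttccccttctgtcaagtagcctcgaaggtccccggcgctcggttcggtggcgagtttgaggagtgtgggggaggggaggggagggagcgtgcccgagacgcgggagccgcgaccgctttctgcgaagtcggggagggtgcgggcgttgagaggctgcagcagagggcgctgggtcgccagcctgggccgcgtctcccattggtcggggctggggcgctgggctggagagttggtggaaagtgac
WNT5A, chr3:55487307-55487556, - strand: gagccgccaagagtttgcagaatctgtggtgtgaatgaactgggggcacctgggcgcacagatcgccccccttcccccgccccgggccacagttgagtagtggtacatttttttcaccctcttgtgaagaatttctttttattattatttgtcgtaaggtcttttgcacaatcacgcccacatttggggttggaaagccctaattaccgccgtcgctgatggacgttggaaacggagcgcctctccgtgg
The DKK1 match lay 95 to 89 bases before the start. SP5 held 3 matches, at 148 to 142, 109 to 103 and 84 to 78 bases before its start. The ROR1 window and both WNT5A windows held none, and of the 2 WNT5A windows the first is shown. That window lies inside the gene's full span, 55465715 to 55490539 on the minus strand, and so precedes a start within the gene. A match describes letters in this window only, and nothing about binding follows from it or from its absence.

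CAL-27 cells expressed most of the pathway. Over the 9 libraries 34 members had a mean of at least 1 FPKM and 16 of at least 10 FPKM, while 11 lay between 0.1 and 1 FPKM and 5 below 0.1 FPKM. DKK1, a secreted antagonist that occupies LRP5 and LRP6, was the highest at a mean of 140 FPKM, followed by CTNNB1 at 46.2 FPKM, FZD6 at 40.2 FPKM, DKK3 at 32.5 FPKM and DVL1 at 31.6 FPKM. NKD1, NOTUM and LGR5 were below 0.1 FPKM in every library. WNT11 and FZD8 were the other members with a mean below 0.1 FPKM. A gene of 1 kb needed 0.175 to 0.197 FPKM to reach 3 reads, so levels near or below this are held by few reads.

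**Figure D1:**
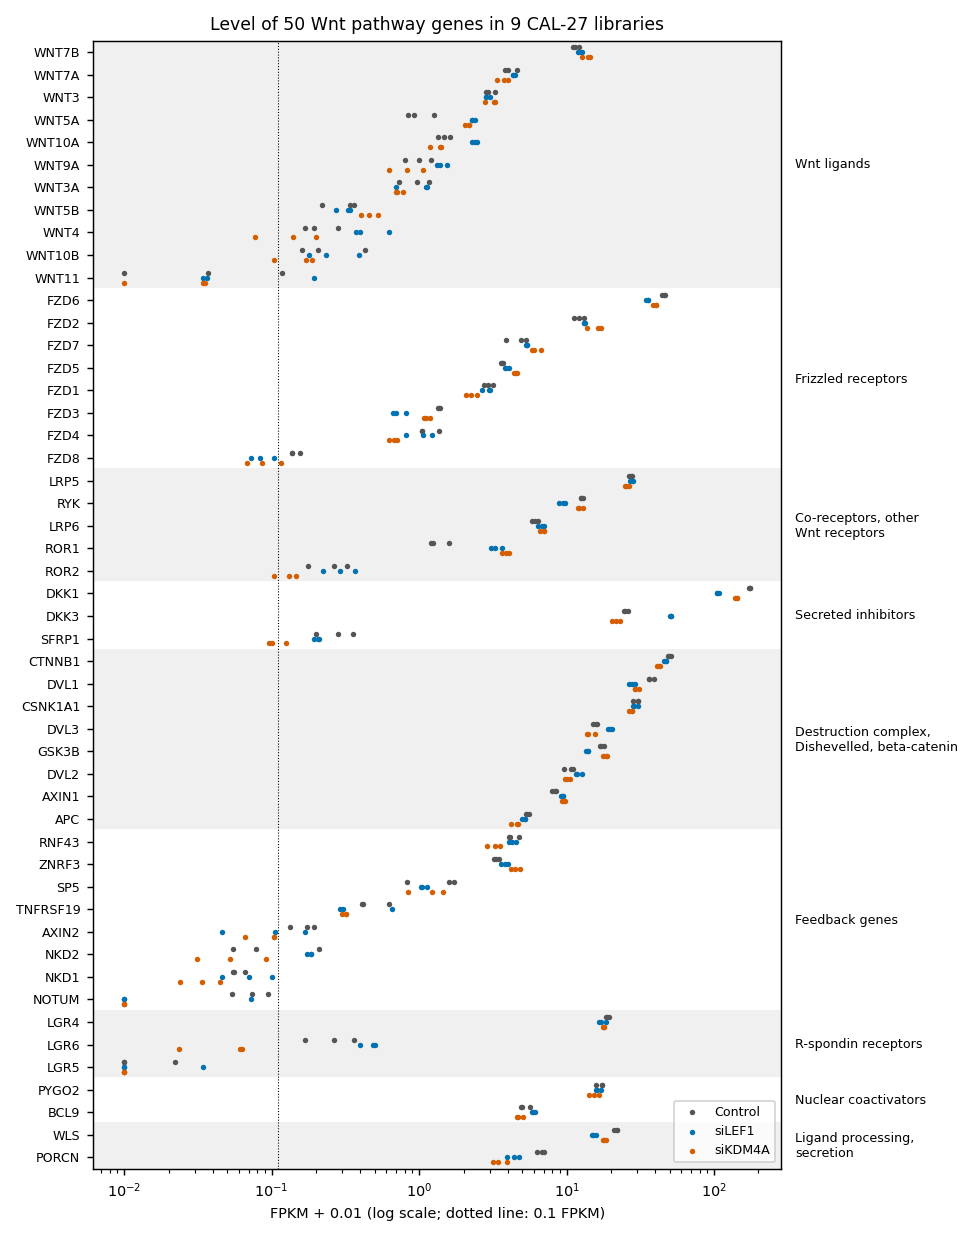
Level of the 50 members in each of the 9 libraries, grouped by role and ordered by mean within a role, with FPKM + 0.01 on a log axis and 1 point per library (grey Control, blue siLEF1, orange siKDM4A). DKK1 lies furthest to the right, and NKD1, NOTUM and LGR5 lie left of the dotted line at 0.1 FPKM in every library.

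Each knockdown was compared with the same 3 Control libraries using limma on log2(FPKM + 0.1), and a gene was said to rise or fall where its adjusted p was below 0.05 and its fold change above 1.5. In siLEF1, 7 of the 46 members tested passed, or 15.2%, against 11.6% of all genes tested. The 4 that rose were WNT5A, WNT10A, ROR1 and DKK3 (8.70%, against 6.31% of all genes), and the 3 that fell were DKK1, FZD3 and PORCN (6.52%, against 5.31%). In siKDM4A, 5 of 45 passed, or 11.1%, against 12.0% of all genes tested. The 2 that rose were WNT5A and ROR1 (4.44%, against 4.23%), and the 3 that fell were PORCN, FZD4 and LGR6 (6.67%, against 7.80%). The shares lay near those of all genes, and the members were chosen with earlier results of these data known. The siKDM4A count was 3 without Control replicate 3 or without siKDM4A replicate 2. The members' median log2 fold change was 0.02 in siLEF1, where that of all genes was -0.01, and -0.19 in siKDM4A, where that of all genes was -0.05. Without the fold threshold, 16 members passed in siLEF1 and 20 in siKDM4A, which were 34.8% and 44.4% of those tested, against 32.5% and 33.1% of all genes. All genes here include those down to a mean of 0.1 FPKM, whereas 34 of the 50 members averaged at least 1 FPKM. When only genes averaging at least 1 FPKM were fitted, 6861 of 12661 in siLEF1 had an adjusted p below 0.05. In siKDM4A 6805 of 12487 did. The libraries of a knockdown did not overlap those of Control for 25 members in siLEF1 and 30 in siKDM4A, or 54.3% and 66.7% of those tested, against 46.3% and 47.1% of all genes. WNT11, NKD1, NOTUM and LGR5 were too low to be tested in either comparison, and NKD2 in siKDM4A.

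**Figure D2:**
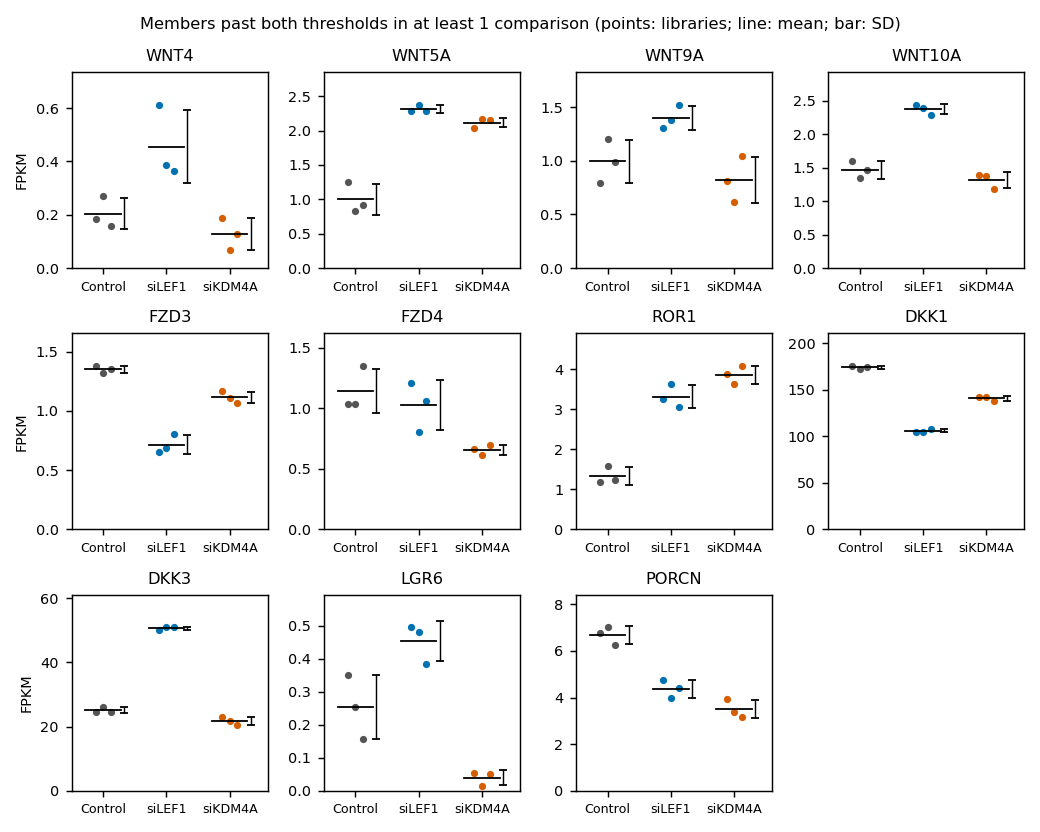
FPKM of the 11 members past both thresholds in at least 1 of the 3 comparisons, with 1 point per library, a line at the mean and a bar for the SD (n = 3), each axis starting at 0. Neither WNT5A nor ROR1 overlapped Control in either knockdown, and DKK3 lay at 50.1 to 51.0 FPKM in siLEF1 and at 20.4 to 26.1 FPKM in the other groups.

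WNT5A, the best known ligand of the beta-catenin-independent branch (chromosome 3, 55465715 to 55490539, minus strand, GRCh38), rose in both knockdowns. Its level was 1.25, 0.836 and 0.912 FPKM in Control, 2.28, 2.38 and 2.28 FPKM in siLEF1 and 2.04, 2.16 and 2.16 FPKM in siKDM4A. All 6 knockdown libraries lay above the 3 Control libraries. The means rose 2.31-fold in siLEF1 (log2 fold change 1.15 ± 0.16 SE, adjusted p = 0.0017) and 2.12-fold in siKDM4A (1.03 ± 0.16 SE, adjusted p = 0.003). Both values rest on the same Control libraries, of which the first was the highest.

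WNT10A, a ligand that acts through beta-catenin (chromosome 2, 218880363 to 218899581, plus strand), rose in siLEF1. It was at 1.60, 1.34 and 1.46 FPKM in Control, at 2.44, 2.39 and 2.29 FPKM in siLEF1 and at 1.39, 1.38 and 1.18 FPKM in siKDM4A. The siLEF1 libraries lay above all others, and Control and siKDM4A overlapped. The siLEF1 mean was 1.62-fold that of Control (log2 fold change 0.66 ± 0.10 SE, adjusted p = 0.0027), and the siKDM4A difference was -0.14 (95% interval -0.45 to 0.16). WNT9A (chromosome 1, 227918656 to 227947898, minus strand) was at 0.793, 1.20 and 0.990 FPKM in Control, 1.30, 1.38 and 1.52 FPKM in siLEF1 and 0.813, 0.617 and 1.04 FPKM in siKDM4A. Its siLEF1 libraries lay above the others, but the difference from Control missed the test (0.47 ± 0.17 SE, adjusted p = 0.084), passing at 0.60 without Control replicate 2 (adjusted p = 0.045), and in siKDM4A it was -0.25 (95% interval -0.82 to 0.31).

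With limma on log2(FPKM + 0.1), the other ligands passed both thresholds in neither comparison with Control. WNT7B, the highest ligand, had means of 11.5 ± 0.56 FPKM in Control, 12.2 ± 0.34 FPKM in siLEF1 and 13.7 ± 0.85 FPKM in siKDM4A (SD, n = 3). Its siKDM4A libraries lay above all Control libraries, by less than the fold threshold (log2 fold change 0.25, adjusted p = 0.018). WNT7A lay between 3.38 and 4.58 FPKM and WNT3, a ligand that signals through beta-catenin, between 2.79 and 3.25 FPKM, with groups that overlapped in both comparisons. WNT3A lay between 0.685 and 1.16 FPKM. WNT5B, WNT10B and WNT4 had means of 0.351, 0.219 and 0.263 FPKM over all libraries. WNT4 was at 0.159 to 0.270 FPKM in Control libraries, 0.363 to 0.613 FPKM in siLEF1 and 0.0677 to 0.188 FPKM in siKDM4A, from 5 to 44 reads per library, and its siLEF1 difference missed the test (0.85, 95% interval 0.11 to 1.59, adjusted p = 0.080), which it passed in the voom fit at 1.12 (adjusted p = 0.0091). WNT11 held 0 to 7 reads per library.

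As shares of the summed ligand FPKM, which was 23.4 to 24.7 in Control libraries, 27.2 to 28.2 in siLEF1 and 25.2 to 27.2 in siKDM4A, WNT7B made up 47.3 to 49.3% in Control libraries, 43.5 to 44.7% in siLEF1 and 50.8 to 53.2% in siKDM4A. WNT5A went from 3.39 to 5.34% in Control to 8.08 to 8.73% in siLEF1 and 7.72 to 8.55% in siKDM4A. WNT10A was at 5.43 to 6.83%, 8.12 to 8.88% and 4.69 to 5.29% in the same order. WNT7B and WNT7A held the largest shares in each of the 9 libraries.

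**Figure D3:**
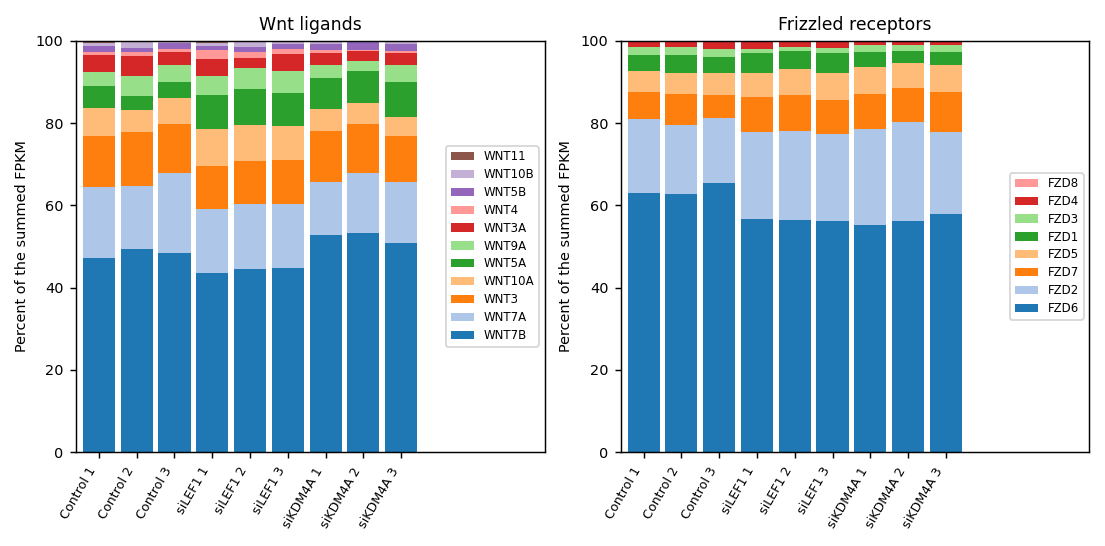
Percent of the summed FPKM of the 11 ligands (left) and the 8 Frizzled receptors (right) taken by each gene in each library. WNT7B takes 43.5 to 53.2% of the ligand sum and FZD6 55.1 to 65.4% of the Frizzled sum.

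Among the Frizzled receptors, FZD3 (also known for its part in planar cell polarity) fell in siLEF1. It was at 1.38, 1.32 and 1.35 FPKM in Control, at 0.654, 0.688 and 0.805 FPKM in siLEF1 and at 1.17, 1.11 and 1.07 FPKM in siKDM4A. The 3 groups did not overlap. The mean fell by 47.0% in siLEF1 (log2 fold change -0.83 ± 0.14 SE, adjusted p = 0.0043), while the siKDM4A difference was -0.26 (95% interval -0.53 to 0.02, adjusted p = 0.14).

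FZD4, the receptor of norrin as well as of Wnt ligands, fell in siKDM4A, where it was at 0.614 to 0.696 FPKM against 1.03 to 1.35 FPKM in Control and 0.808 to 1.21 FPKM in siLEF1. Its log2 fold change was -0.71 (adjusted p = 0.018) and became -0.59 without Control replicate 3 (adjusted p = 0.057) and -0.66 without siKDM4A replicate 2 (adjusted p = 0.053). FZD4 shares 1399 exon bases, 18.9% of its own, with PRSS23 on the opposite strand. PRSS23 had a mean of 32.9 FPKM and moved the other way in siKDM4A (log2 fold change 0.12), and since the strand setting of the counting is not given in the sources used here, reads of the 2 genes may not have been told apart. In siLEF1 PRSS23 rose by 0.91 on the log2 scale (limma, adjusted p = 4.5e-06). Its difference in siKDM4A against siLEF1 was -0.79 (adjusted p = 4.4e-06).

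FZD6, the most abundant Frizzled, was at 44.7 to 46.3 FPKM in Control, 34.7 to 35.9 FPKM in siLEF1 and 38.2 to 40.5 FPKM in siKDM4A. Both differences were below the fold threshold, at -0.37 (95% interval -0.43 to -0.31) and -0.21 (-0.28 to -0.13). Its share of the summed Frizzled FPKM was 62.6 to 65.4% in Control libraries, 56.3 to 56.7% in siLEF1 and 55.1 to 58.0% in siKDM4A. FZD2 was second, at 15.9 to 18.0%, 21.0 to 21.5% and 19.96 to 23.9%. FZD2, FZD5 and FZD7 differed from Control by 0.37, 0.30 and 0.39 in siKDM4A and by 0.12, 0.10 and 0.19 in siLEF1 on the log2 scale, and FZD1 by -0.37 and -0.03, none of them past the fold threshold. FZD8 held 4 to 9 reads per library.

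ROR1, a receptor tyrosine kinase-like protein that binds WNT5A (chromosome 1, 63774022 to 64181498, plus strand), rose in both knockdowns. It was at 1.20, 1.59 and 1.23 FPKM in Control, at 3.25, 3.62 and 3.06 FPKM in siLEF1 and at 3.87, 3.63 and 4.08 FPKM in siKDM4A. All knockdown libraries were above all Control libraries, and the siKDM4A libraries were also above the siLEF1 libraries. The means rose 2.47-fold in siLEF1 (log2 fold change 1.25 ± 0.13 SE, adjusted p = 0.00057) and 2.88-fold in siKDM4A (1.47 ± 0.13 SE, adjusted p = 0.00022). These were the largest rises among the members in either comparison.

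The related ROR2 was at 0.166 to 0.315 FPKM in Control, 0.212 to 0.356 FPKM in siLEF1 and 0.0943 to 0.137 FPKM in siKDM4A, from 9 to 33 reads. It passed no test against Control, with a difference of 0.16 (95% interval -0.61 to 0.93) in siLEF1 and -0.65 (-1.48 to 0.18) in siKDM4A. RYK, an atypical kinase receptor, had means of 12.7 ± 0.15 FPKM in Control, 9.34 ± 0.47 FPKM in siLEF1 and 12.3 ± 0.53 FPKM in siKDM4A (SD, n = 3), and its siLEF1 difference of -0.44 was below the fold threshold (adjusted p = 0.00051). The co-receptor LRP5 lay between 24.9 and 28.3 FPKM and LRP6 between 5.85 and 7.06 FPKM, with differences of 0.03 and 0.14 in siLEF1 and -0.09 and 0.17 in siKDM4A.

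DKK1 (chromosome 10, 52314296 to 52318042, plus strand) fell in siLEF1. It was at 176, 172 and 175 FPKM in Control, at 105, 105 and 108 FPKM in siLEF1 and at 143, 142 and 138 FPKM in siKDM4A. The 3 groups were separate, with siKDM4A between the others. The mean fell by 39.1% in siLEF1 (log2 fold change -0.72 ± 0.02 SE, adjusted p = 5.0e-06). In siKDM4A it was 19.1% lower, under the fold threshold (-0.31 ± 0.02 SE, adjusted p = 0.00013). DKK1 shares 212 exon bases with PRKG1-AS1 on the opposite strand, a gene at 0.502 FPKM.

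DKK3, a divergent Dickkopf family member (chromosome 11, 11963106 to 12009769, minus strand), rose in siLEF1. It was at 24.5, 26.1 and 24.7 FPKM in Control, at 50.1, 51.0 and 50.9 FPKM in siLEF1 and at 22.9, 21.7 and 20.4 FPKM in siKDM4A. The mean was 2.02-fold higher in siLEF1 (log2 fold change 1.01 ± 0.03 SE, adjusted p = 5.2e-06) and 13.8% lower in siKDM4A (-0.21 ± 0.05 SE, adjusted p = 0.015), the latter under the fold threshold. DKK1 and DKK3 thus differed from Control in opposite directions in siLEF1. Of the summed FPKM of DKK1, DKK3 and SFRP1, DKK3 made up 12.3 to 13.2% in Control libraries, 32.0 to 32.6% in siLEF1 and 12.9 to 13.8% in siKDM4A. SFRP1, which binds Wnt ligands directly, was at 0.189 to 0.344 FPKM in Control, 0.185 to 0.199 FPKM in siLEF1 and 0.0859 to 0.115 FPKM in siKDM4A, from 7 to 25 reads, and its siKDM4A difference of -0.88 missed the test (95% interval -1.70 to -0.06, adjusted p = 0.099), which it passed in the voom fit at -1.32 (adjusted p = 0.014).

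None of the 8 genes of the destruction complex, Dishevelled and beta-catenin passed both thresholds with limma or with the voom fit on recovered reads, although 6 had an adjusted p below 0.05 in siLEF1 and 4 in siKDM4A, against 32.5% and 33.1% of all genes. The unadjusted p was below 0.05 for 6 and 5 of them, against 41.5% and 41.9% of all genes. These 8 genes had means of 5.02 to 46.2 FPKM, and the shares of all genes include genes down to 0.1 FPKM. When only genes averaging at least 1 FPKM were fitted with limma, 6861 of 12661 in siLEF1 had an adjusted p below 0.05. In siKDM4A 6805 of 12487 did. CTNNB1 itself had means of 49.7 ± 1.04 FPKM in Control, 46.6 ± 0.87 FPKM in siLEF1 and 42.2 ± 0.99 FPKM in siKDM4A (SD, n = 3). Its differences were -0.09 (95% interval -0.15 to -0.03) and -0.23 (-0.30 to -0.16). DVL1, a Dishevelled adaptor, was at 36.1 to 38.9 FPKM in Control, 26.6 to 29.01 FPKM in siLEF1 and 29.2 to 31.1 FPKM in siKDM4A, with differences of -0.42 and -0.31. DVL3 was at 15.0 to 15.99, 19.1 to 20.2 and 13.7 to 15.6 FPKM in the same order, with differences of 0.33 and -0.11. In siLEF1 the paralogues DVL1 and DVL3 therefore lay on opposite sides of Control, each without overlap. DVL2 differed by 0.20 in siLEF1 and by -0.05 in siKDM4A.

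The kinase GSK3B was at 16.7 to 18.0 FPKM in Control, 13.6 to 14.0 FPKM in siLEF1 and 17.7 to 18.8 FPKM in siKDM4A, with differences of -0.32 (adjusted p = 0.00087) and 0.08 (adjusted p = 0.19). The scaffold AXIN1 differed by 0.18 and 0.20. APC, the scaffold that binds beta-catenin, was at 5.31 to 5.54 FPKM in Control and 4.18 to 4.70 FPKM in siKDM4A, a difference of -0.26 (adjusted p = 0.019). The kinase CSNK1A1 lay between 26.6 and 30.6 FPKM and shares 37.4% of its exon bases with AC021078.1 on the same strand, so its count is uncertain.

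The feedback genes that are the usual readouts of beta-catenin signalling were low. AXIN2, a scaffold induced by the pathway, was held by 10 to 15 Control reads per library, by 3 to 14 in siLEF1 and by 5 to 8 in siKDM4A, or 0.123 to 0.185, 0.0362 to 0.157 and 0.0559 to 0.0938 FPKM. Neither difference passed the test, at -0.43 (95% interval -1.40 to 0.55) and -0.51 (-1.39 to 0.38), and a fall of more than 1.5-fold lies within both intervals. NKD1, which binds Dishevelled, held 12 to 15, 10 to 25 and 4 to 10 reads in the 3 groups. NKD2 held 2 to 9, 8 and 1 to 4 reads. NOTUM, an enzyme that removes the lipid from Wnt ligands, had 2 to 4 reads per Control library, 0 to 3 per siLEF1 library and 0 in all siKDM4A libraries, where a count of 0 allows up to 3 reads.

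SP5, a transcription factor gene induced by beta-catenin and the carrier of 3 motif matches above, was at 0.811, 1.72 and 1.59 FPKM in Control, 1.04, 1.13 and 1.03 FPKM in siLEF1 and 1.45, 0.833 and 1.22 FPKM in siKDM4A. The groups overlapped, and the differences were -0.28 (95% interval -0.93 to 0.37) and -0.19 (-0.94 to 0.57). One library decided the siLEF1 value: without Control replicate 1, the lowest of that group, SP5 passed both thresholds at -0.59 (adjusted p = 0.024). TNFRSF19 lay between 0.283 and 0.643 FPKM. The membrane ubiquitin ligases RNF43 and ZNRF3, which remove Frizzled receptors from the surface, were the highest of the 8 feedback genes. RNF43 was at 4.08 to 4.74 FPKM in Control, 4.04 to 4.53 FPKM in siLEF1 and 2.89 to 3.51 FPKM in siKDM4A. ZNRF3 was at 3.23 to 3.48, 3.58 to 3.98 and 4.21 to 4.83 FPKM. In siKDM4A the former differed from Control by -0.42 (adjusted p = 0.017) and the latter by 0.41 (adjusted p = 0.0053), both without overlap and both under the fold threshold. RNF43 shares 20.3% of its exon bases with TSPOAP1-AS1 on the opposite strand, a gene at 0.0264 FPKM. It also shares 143 exon bases, 1.9% of its own, with SUPT4H1 on the same strand, a gene at 10.7 FPKM. SUPT4H1 differed from Control by -0.17 in siLEF1 and 0.20 in siKDM4A.

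Of the R-spondin receptors, which hold RNF43 and ZNRF3 in check when bound by R-spondin, LGR4 was by far the highest at 16.5 to 19.5 FPKM, with differences of -0.12 in siLEF1 and -0.09 in siKDM4A. LGR5, known as an intestinal stem cell marker, held at most 2 reads in any library. LGR6 had 11 to 25 reads per Control library, 30 to 36 per siLEF1 library and 1 to 4 per siKDM4A library, or 0.157 to 0.350, 0.384 to 0.495 and 0.0134 to 0.0532 FPKM. The groups did not overlap. LGR6 fell in siKDM4A by 1.32 on the log2 scale (adjusted p = 0.048), but the call was lost without any 1 of the 6 libraries, with values of -1.53 to -1.13 and adjusted p up to 0.15, and the size of the change depends on the 0.1 FPKM added before the logarithm.

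PORCN, the acyltransferase that lipid-modifies Wnt ligands, fell in both knockdowns. It was at 6.76, 7.01 and 6.27 FPKM in Control, at 4.73, 3.96 and 4.41 FPKM in siLEF1 and at 3.95, 3.40 and 3.18 FPKM in siKDM4A. All knockdown libraries were below all Control libraries. The mean fell by 34.6% in siLEF1 (log2 fold change -0.60 ± 0.08 SE, adjusted p = 0.0015) and fell by 47.5% in siKDM4A (-0.91 ± 0.09 SE, adjusted p = 0.00044). The siLEF1 value lay close to the fold threshold, and became -0.57 without Control replicate 2 and -0.54 without siLEF1 replicate 2, with adjusted p of 0.0075 and 0.0042.

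WLS, the carrier of lipid-modified Wnt ligands, was at 21.0 to 21.9 FPKM in Control, 14.8 to 15.9 FPKM in siLEF1 and 17.6 to 18.6 FPKM in siKDM4A. Its differences of -0.50 (95% interval -0.59 to -0.41) and -0.26 (-0.34 to -0.17) had an adjusted p below 0.05 and were smaller than the fold threshold. The coactivators BCL9 and PYGO2, which link beta-catenin to chromatin, had means of 5.30 and 16.2 FPKM over all libraries and differed by 0.20 and -0.04 in siLEF1 and by -0.12 and -0.14 in siKDM4A. PYGO2 shares 9.23% of its exon bases with SHC1.

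The knockdowns were also compared with each other, which does not use the Control libraries. In siKDM4A against siLEF1, 5 of 44 members passed both thresholds, or 11.4%, against 15.3% of all genes tested. All 5 were lower in siKDM4A. With limma on log2(FPKM + 0.1) 0 members were higher, against 5.28% of all genes, although 13 had an unadjusted p below 0.05 in that direction (29.5%, against 20.4% of all genes). FZD3 was called higher by the voom fit on recovered reads and by limma with a pseudocount of 0.01 FPKM, with scaled libraries, without siLEF1 replicate 3 and without siKDM4A replicate 3. DKK3 fell by 1.22 (adjusted p = 4.8e-06), WNT10A by 0.80 (adjusted p = 0.0011) and WNT9A by 0.72 (adjusted p = 0.028) on the log2 scale. Of the members below 1 FPKM, LGR6 fell by 1.998 (adjusted p = 0.003) and WNT4 by 1.29 (adjusted p = 0.026). WNT4 and WNT9A each lost the call in 5 of the 6 fits that leave out 1 library, and WNT4 kept it only without siKDM4A replicate 1 and WNT9A only without siKDM4A replicate 3. The count was 3 without siLEF1 replicate 1 or without siKDM4A replicate 2. Without the fold threshold 24 members passed, or 54.5% against 36.9% of all genes, and 35 did not overlap, or 79.5% against 49.6%. These shares of all genes again include genes down to 0.1 FPKM. When only genes averaging at least 1 FPKM were fitted with limma, 7371 of 12520 had an adjusted p below 0.05. The part of expression level in the difference was not tested.

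WNT5A and ROR1 passed neither threshold between the knockdowns, with differences of -0.12 (95% interval -0.31 to 0.06) and 0.22 (0.01 to 0.42), although for each the libraries of the knockdowns did not overlap. PORCN differed by -0.31 (95% interval -0.56 to -0.06, adjusted p = 0.056). DKK1 was higher in siKDM4A than in siLEF1 by 0.41 (adjusted p = 3.1e-05) and FZD3 by 0.58 (adjusted p = 0.021), the latter just under the fold threshold. GSK3B and RYK were higher in siKDM4A by 0.40 and 0.39, and DVL3 lower by 0.45, each with an adjusted p below 0.05 and under the fold threshold.

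The rest of the pathway was read from a list of 94 other Wnt genes. Of 70 tested in siLEF1, 7 rose and 3 fell (14.3%), and of 69 tested in siKDM4A, 3 rose and 7 fell (14.5%), beside 11.6% and 12.0% of all genes. In siLEF1 the largest changes among genes of at least 1 FPKM were rises of MESD, the chaperone of LRP5 and LRP6, by 0.97, of the formin DAAM1 by 0.88, of the planar polarity gene VANGL1 by 0.86 and of CTNNBIP1, an inhibitor that binds beta-catenin, by 0.70 on the log2 scale. In siKDM4A, MESD rose by 1.496, while the planar polarity genes VANGL2 and CELSR2 fell by 1.54 and 1.17 and KREMEN1, a DKK1 receptor, fell by 0.99. MESD thus joined WNT5A and ROR1 among genes that rose in both comparisons with the shared Control libraries. Of 69 tested between the knockdowns, 1 was higher in siKDM4A and 10 were lower (15.9%).

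Genes described as targets of beta-catenin and TCF factors were counted last, from a list of 38. Of 31 tested, 6 rose and 3 fell in siLEF1, 9 of 31 against 11.6% of all genes. In siKDM4A 6 rose and 5 fell, or 35.5% against 12.0%. Between the knockdowns 3 were higher and 5 lower in siKDM4A, or 25.8% against 15.3%. The list was put together with results of these libraries known, so these shares are no independent evidence. In siLEF1 the endothelin gene EDN1, the adhesion gene L1CAM, the ephrin receptor EPHB2 and the protease MMP7 rose by 1.68, 1.24, 1.21 and 0.85 on the log2 scale, the last with an adjusted p of 0.019 that became 0.060 to 0.069 without either of the first 2 Control or the first 2 siLEF1 replicates. In siKDM4A, EDN1 rose by 1.87, and the cyclin CCND1, the ephrin receptor EPHB3 and the growth factor VEGFA fell by 1.15, 1.15 and 0.85. CCND1 also fell in siLEF1, by 0.74, and EPHB2 also rose in siKDM4A, by 0.69. The list's median log2 fold change was 0.02 in siLEF1 and -0.17 in siKDM4A.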

How the data were processed

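Poly(A) RNA was sequenced from 9 CAL-27 libraries, 3 per group, which the study's methods call independent samples. Per library, the authors deposited a table of FPKM, normalised to gene length and library reads. The submitters' processing notes name Trimmomatic, HISAT2, HTSeq, Cufflinks and hg38. The library kit keeps strand, and the strand setting of counting is not given in the sources used here. Whole reads were recovered from the FPKM steps with GENCODE 29 exon lengths (99.9986% of values above 0 within 0.02 of a whole read), with totals of 15263188 to 17126664 per library. They gave depths and a voom alternative with TMM factors. Of the gene identifiers, 33074 of 33216 were in GENCODE 29. A gene of 1 kb needs 0.175 to 0.197 FPKM for 3 reads; this covers counting error only.

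Comparisons were fitted over every gene averaging 0.1 FPKM or more in the 6 libraries compared, with limma 3.58.1 in R 4.3.3 (eBayes with trend, 2-sided) on log2(FPKM + 0.1), which understates changes of low genes, with Benjamini-Hochberg adjustment over all genes and thresholds of 0.05 and 1.5-fold. Members and lists were chosen with earlier results of these data known. Members past both thresholds averaging 1 FPKM or more are given in full, and the 4 largest changes per list against Control are named. Replicates were compared and none was a duplicate. Replicate numbers were not used to pair libraries in the main fits. Alternatives were pseudocounts of 1 and 0.01, no filter, a filter of 1 FPKM, 1 fit of all 9 libraries, scaled libraries, a replicate block, voom, no fold threshold and leaving out each library. Motifs were searched with Python 3.11.15 in RefSeq promoter windows (GRCh38.p14).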

Additional observations from a re-analysis of the deposited data

How the results depend on the processing

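Of 17 member calls in the 3 comparisons, 8 were kept under every alternative: WNT5A, ROR1, DKK1 and DKK3 in siLEF1, WNT5A, ROR1 and PORCN in siKDM4A, and DKK3 between the knockdowns. No call of a named gene changed direction. With a pseudocount of 1 FPKM the members past both thresholds were 4, 3 and 1 in siLEF1, in siKDM4A and between the knockdowns, among 1405, 1462 and 1841 genes in all, and the other Wnt genes in siKDM4A numbered 6. This ended the calls of WNT10A, FZD3 and PORCN in siLEF1, FZD4 and LGR6 in siKDM4A, and WNT4, WNT9A, WNT10A and LGR6 between the knockdowns. With a filter of 1 FPKM, 3 members passed in siKDM4A and 3 between the knockdowns, since FZD4, LGR6 and WNT4 were no longer tested. With no filter, 6 members passed in siKDM4A, adding NOTUM as lower, from 0 to 4 reads per library. The voom fit called 8 members between the knockdowns, adding FZD3, NKD2 and ROR2, and also called WNT4 and LGR6 in siLEF1 and SFRP1 in siKDM4A. FZD3 between the knockdowns also passed with a pseudocount of 0.01 FPKM, with scaled libraries and without siLEF1 replicate 3 or siKDM4A replicate 3, FZD4 without siLEF1 replicate 2 (-0.71), and SFRP1 in siKDM4A in 1 fit of all 9 libraries. Without the fold threshold, members numbered 16, 20 and 24, all genes 7104, 7025 and 7928, other Wnt genes 39, 29 and 35 and target genes 19, 21 and 16. Leaving out 1 library at a time gave 6 to 8, 3 to 4 and 3 to 5 members in the 3 comparisons, 2239 to 2347, 2278 to 2430 and 2905 to 3077 genes in all, 10 to 11, 7 to 10 and 10 to 11 other Wnt genes, and 7 to 9, 10 to 11 and 8 to 9 target genes. The siKDM4A count was 3 without Control replicate 3 and without siKDM4A replicate 2. Between the knockdowns, WNT4 lost its call in 5 of the 6 fits and WNT9A in 5, with adjusted p up to 0.094 and 0.093. Same-numbered libraries deviated together by correlations of at most 0.043, and the main fits did not pair them. Whether they shared a source in part was not tested. With a replicate block 2245, 2305 and 2953 genes passed, and of the named calls LGR6 in siKDM4A (adjusted p = 0.097) and MMP7 in siLEF1 (adjusted p = 0.068) were lost. The cause of these shifts was not tested. Members of a few reads, among them AXIN2, NKD1, NKD2 and NOTUM, are limited by depth.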
